A study of Mus musculus with 2 samples.

Results

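The microRNAs described here are the arms of the miR-200 family, which were picked on the arrays by probe name and not by signal. They are the 3p arms mmu-miR-200a-3p, mmu-miR-200b-3p, mmu-miR-200c-3p, mmu-miR-141-3p and mmu-miR-429-3p and the 5p arms mmu-miR-200a-5p, mmu-miR-200b-5p and mmu-miR-141-5p, 8 of the 1892 mouse microRNA probes, where mmu stands for mouse. RNA from unwounded skin and from unwounded oral mucosa was pooled from 3 animals for each tissue, and each pool was hybridized to 1 single-colour (Cy5) array with 2 µg of total RNA. The study's mice were female Balb/c of 8 to 10 weeks without any treatment in these samples. With 1 array per tissue there is no replicate across pools and nothing could be tested between tissues, so every difference below is one between 2 arrays. The sample labels name skin and oral mucosa, whereas the series title and the study's text speak of epithelium, and how far other layers were taken off is not stated.

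The miR-200 family is made in epithelial cells from 2 primary transcripts. Its 3p arms, which are the arms mainly loaded into the silencing complex, repress Zeb1 and Zeb2, the transcription factors that repress E-cadherin, and Zeb1 and Zeb2 in turn repress both microRNA clusters. The family is therefore known as a keeper of the epithelial state, in skin as in other lining tissues. In the RefSeq annotation of GRCm38.p6 the first cluster lies on the minus strand of chromosome 4, with Mir200b at chr4:156055681-156055750, Mir200a at chr4:156054896-156054985 and Mir429 at chr4:156053905-156053987, all within 1846 bases and inside the span of the long noncoding RNA gene Gm13648. The second lies on the minus strand of chromosome 6, with Mir200c at chr6:124718322-124718390 and Mir141 at chr6:124717914-124717985, within 477 bases, between the protein-coding genes Phb2 and Ptpn6 and overlapping no other annotated gene.

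The 5 mature 3p arms are shown since the results turn on how such similar molecules differed. They are RefSeq sequences and identical to the target sequences that the array files give, with the seed, bases 2 to 8, in capitals.
miR-200b-3p: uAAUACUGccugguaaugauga
miR-200c-3p: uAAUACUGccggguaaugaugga
miR-429-3p: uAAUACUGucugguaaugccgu
miR-200a-3p: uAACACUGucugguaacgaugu
miR-141-3p: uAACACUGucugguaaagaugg
The seed, which selects the targets, thus splits the family in a way that crosses the genomic clusters: miR-200b-3p, miR-200c-3p and miR-429-3p share one seed, miR-200a-3p and miR-141-3p the other. No other probe on the array carries either seed. Counted from the 5′ end, the seeds of miR-200a-3p and miR-200b-3p differ by C4U.

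The family is close in sequence outside the seed too, so that probes could in principle bind a relative. Over the first 22 bases all 5 arms share 15. MiR-200a-3p and miR-141-3p differ at 2 bases (C17A and U22G), and miR-200b-3p and miR-200c-3p at 2 as well (U11G and A22G), with miR-200c-3p being 1 base longer. How far each probe bound the relatives of its target was not tested, and no level of a probe is set against that of another probe below.

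The spots were read as follows. Each probe stands on 2 repeat spots at the same positions of both arrays, and its value is the mean of the 2 deposited median brightnesses in scanner units. The 16 empty spots gave the detection limit, their mean plus 3 SD, which lay at 59.9 on the skin array and at 71.8 on the other. By this limit 20.8% of all probes were detected on both arrays, 29.7% on at least 1 and 2.75% on that of skin alone. Variance Stabilizing Normalization (VSN), in which every array gets its own fitted offset and scale factor, put the arrays on a common scale. Differences are given as oral mucosa minus skin on its log2 scale, and a microRNA was said to differ when the size was at least 1, a 2-fold change. The SD beside a difference comes from the repeat spots of both arrays, 2 on each, and covers technical error within the arrays only. It leaves the spots unmatched by position, so brightness that a position shares on both arrays is counted as error.

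All 5 3p arms were detected on both arrays, with signals far above the limits, and their differences between the tissues were not alike. By the size rule miR-429-3p was higher in oral mucosa and miR-200c-3p was higher in skin, while miR-200a-3p, miR-141-3p and miR-200b-3p lay in between and did not pass. Of the 5p arms, 2 were detected in skin only and miR-141-5p on neither array. Of the 8 members 3 passed the size rule, 1 toward oral mucosa (miR-429-3p) and 2 toward skin (miR-200c-3p and miR-200b-5p). This split depended on the scaling, with 2 toward oral mucosa and 0 toward skin under no normalization, 1 and 0 under quantile normalization, and 1 and 1 on the processed intensities that the authors deposited. Over all 562 microRNAs detected on at least 1 array, 28.5% passed in either direction, 13.7% toward oral mucosa and 14.8% toward skin, so 3 of the 7 members detected on at least 1 array is a small count from which no excess is read.

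**Figure D1:**
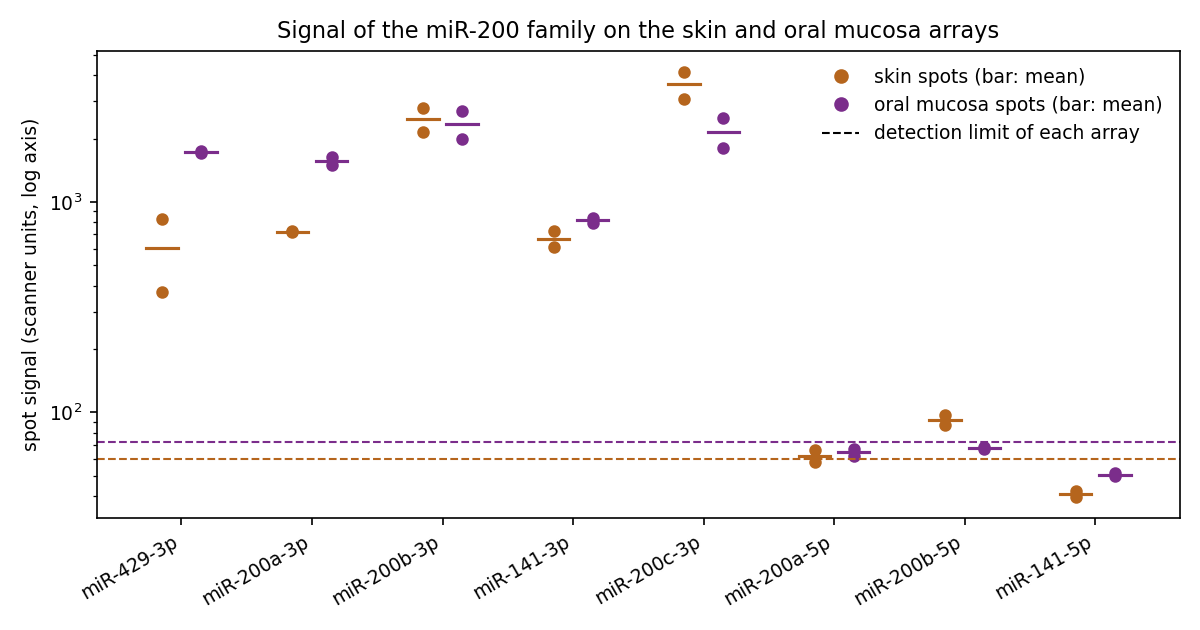
Signal of each spot (points) and the mean of the 2 repeat spots (bars) for the 8 arms, in scanner units on a log axis, with the skin array in brown and the oral mucosa array in purple. The 3p arms stand far above the detection limits (dashed, skin 59.9 and oral mucosa 71.8), and the 5p arms lie close to them or below.

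The arm mmu-miR-429-3p, encoded at the 3′ end of the chromosome 4 cluster, read 371 and 833 on its skin spots and 1738 and 1715 on its oral mucosa spots. Both oral mucosa spots were thus brighter than both skin spots, but the skin spots differed 2.24-fold from each other. The VSN log2 difference was 1.12 (SD 0.89). It was 1.89 from the first chip position alone and 0.61 from the second, so the direction was the same at both positions and the size depended on which skin spot was read. Within 3 rows and 3 columns of the first position, 11 probes had a median VSN difference of 0.68, against -0.01 for 12 near the second. The part of chip region was not tested. In a wider window, chosen after seeing the data, the dim skin spot was not matched by its surroundings. Among the 42 other probes detected on both arrays within 10 rows and 5 columns of it, 6 were dimmer there than at their repeat position, with a median of 0.13 on the log2 scale, against -1.17 for miR-429-3p itself. The size rule was met in 16 of the 18 settings of scaling, background, spots and centring, and it was not when only the repeat spot in the later row was used (0.57) or when the brightness of nearby spots was taken off (0.78).

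The arm mmu-miR-200a-3p, from the same cluster, had the smallest repeat-spot SD of the 3p arms. Its skin spots read 726 and 716 and its oral mucosa spots 1633 and 1502. The difference was 0.70 (SD 0.09), or 1.62-fold toward oral mucosa, and the spots of the arrays did not overlap. It was 0.75 and 0.65 at the separate chip positions, and 0.39 and 0.57 after removal of nearby or of wider local brightness. The size rule was not reached with VSN, but it was with no normalization between the arrays (1.12) and when the keratinocyte microRNAs miR-203-3p and miR-205-5p were set to 0 (1.19).

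The arm mmu-miR-200b-3p, from the first hairpin of that cluster, read 2790 and 2139 in skin and 2690 and 1993 in oral mucosa. These raw readings overlapped, although the normalized ones did not, and the difference of -0.54 (SD 0.42) did not pass the size rule. The first spot was brighter than the second on both arrays by a similar factor, so that the difference was -0.52 and -0.57 at the separate positions. Other probes near that first spot were brighter there too, by a median of 0.38 on the log2 scale in skin and 0.31 in oral mucosa over 26 probes. On the VSN scale these 26 had a median difference of -0.46 at that spot, while 31 probes near the second had 0.01. Within 3 rows and 3 columns, family arms included, the median was -0.39 (7 probes) near the first and 0.75 (7 probes) near the second. The spots lie next to those of miR-200a-5p, miR-200b-5p and miR-200c-3p, in rows 1 to 4 of column 19 and rows 114 to 117 of column 3. The part of chip region in these differences was not tested. The distance of the miR-200b-3p difference from 0 depended on the scale, as it was -0.07 with no normalization and -0.05 with the keratinocyte microRNAs set to 0. It was -0.72 and -0.31 after removal of nearby or of wider local brightness.

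The arm mmu-miR-200c-3p, which shares the seed of miR-200b-3p and miR-429-3p and comes from chromosome 6, was the 3p arm with the lowest difference. It read 4144 and 3092 on the skin spots and 2497 and 1801 on the oral mucosa spots, and both skin spots were above both oral mucosa spots. The difference was -1.22 (SD 0.46), or 2.34-fold toward skin, and -1.20 and -1.26 at the separate positions. It was below 0 in all 18 settings and past the size rule in 11. With no normalization it was -0.75, with quantile normalization -0.95 and with the keratinocyte microRNAs set to 0 -0.73, each short of the size rule, as it was at -0.88 and -0.99 after removal of nearby or of wider local brightness.

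The arm mmu-miR-141-3p, its neighbour on chromosome 6, read 727 and 612 in skin and 841 and 798 in oral mucosa. Its raw oral mucosa spots were both brighter than its skin spots, but the VSN difference was -0.17 (SD 0.20), within the error of the repeat spots, and the normalized spots overlapped. Its sign depended on the scale and was above 0 in 6 of the 18 settings, with 0.29 under no normalization and 0.10 under quantile normalization.

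**Figure D2:**
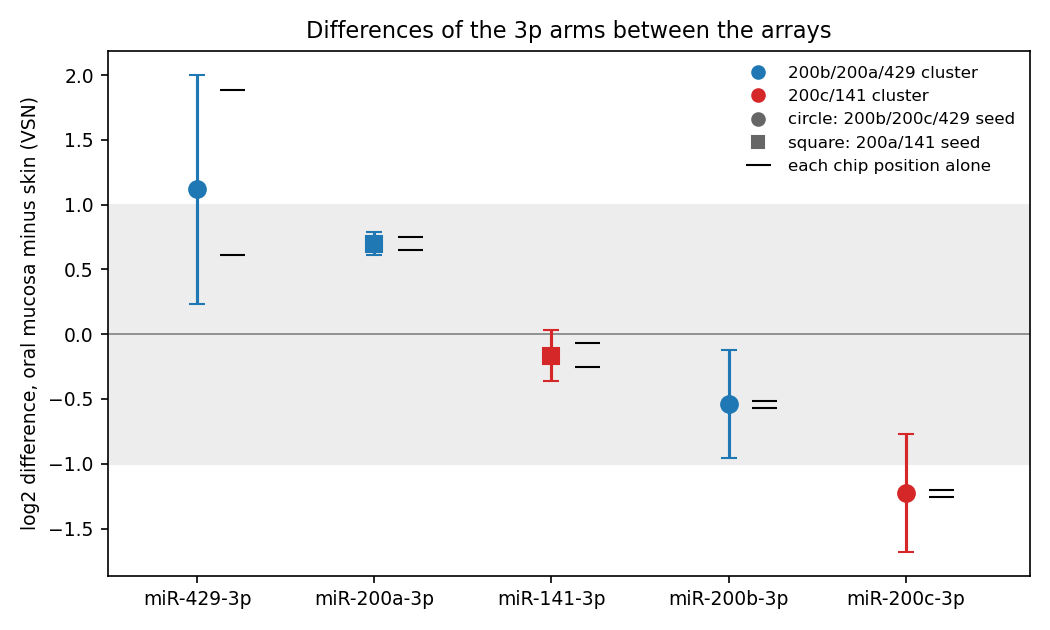
VSN log2 difference, oral mucosa minus skin, of the 5 3p arms with the SD from repeat spots (bars), and the same from each chip position alone (black dashes). Colour marks the genomic cluster and shape the seed, and the grey band holds differences under the size rule of 1; from miR-429-3p at 1.12 to miR-200c-3p at -1.22 the order follows neither grouping.

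The order of the differences was miR-429-3p, miR-200a-3p, miR-141-3p, miR-200b-3p and miR-200c-3p, from the most oral to the most skin-weighted. A contrast between 2 members is taken within the arrays, so a scale between the arrays hardly moves it where both signals are bright. Of the 10 such pairs, 7 were apart in every combination of their spots and 5 exceeded 2 SD, both read with spots unmatched by position. The 10 pairs draw on only 5 values. How often pairs of other microRNAs were apart was not counted, so no excess is read. The widest contrast was that of miR-429-3p over miR-200c-3p, at 2.34 (SD 1.00). The better measured contrast of miR-200a-3p over miR-200c-3p was 1.92 (SD 0.46), a 3.79-fold shift of one relative to the other, and that of miR-200a-3p over miR-141-3p was 0.86 (SD 0.21). These contrasts were between 1.27 and 1.95, and between 0.55 and 1.00, over the settings. Of the 18 settings, 4 shift every arm alike and 2 repeat the contrasts of another, which leaves 12 that could change the order. On the processed intensities, as log2(value + 50), the differences were 1.10, 0.69, -0.08, -0.36 and -1.03 in the same order. By these SDs the other neighbours in the order were less well separated. The contrasts of miR-429-3p over miR-200a-3p (0.42, SD 0.89) and of miR-141-3p over miR-200b-3p (0.37, SD 0.46) lay within their repeat-spot error. That of miR-200b-3p over miR-200c-3p was 0.69 (SD 0.62), and 0.17 to 0.69 over the settings. Read by position it was steadier, with miR-200b-3p at -0.52 and -0.57 and miR-200c-3p at -1.20 and -1.26.

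**Figure D3:**
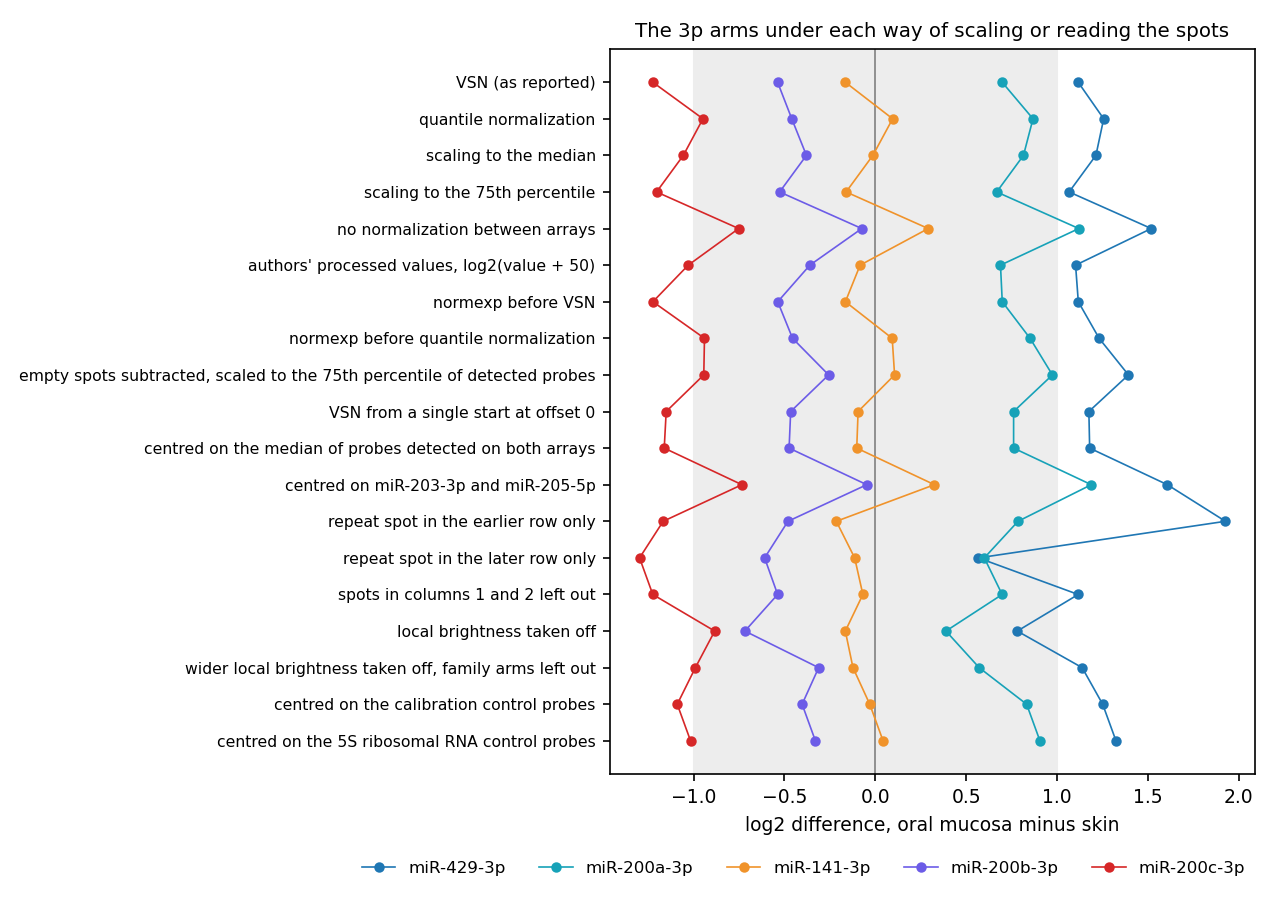
Log2 difference of each 3p arm (horizontal axis) with VSN and under 18 other ways of scaling the arrays, correcting background, choosing spots or centring (rows). Of the 12 settings that could change the order of the arms 11 keep it, and with the later spot only, miR-429-3p (0.57) lies just under miR-200a-3p (0.60).

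Read by genomic cluster, the members of 1 primary transcript did not share a difference. On chromosome 4, miR-429-3p and miR-200a-3p were above 0 and miR-200b-3p below it, a range of 1.65, and the contrast of miR-200a-3p over miR-200b-3p was 1.24 (SD 0.43). On chromosome 6, miR-141-3p exceeded miR-200c-3p by 1.06 (SD 0.50). The median difference was 0.70 for the 3 arms of chromosome 4 and -0.69 for the 2 arms of chromosome 6. The mean of the first cluster exceeded that of the second by 1.12 (SD 0.41), and this contrast was 0.68 when the brightness around each spot was taken off.

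Read by seed, the groups differed less from each other than their members did. The group of miR-200b-3p, miR-200c-3p and miR-429-3p spanned from -1.22 to 1.12, and the pair of miR-200a-3p and miR-141-3p from -0.17 to 0.70. The mean of the first group minus that of the second was -0.48 (SD 0.38), and it ran from -0.69 to -0.19 over the settings. MicroRNAs with the same seed thus lay on both sides of 0. Outside the seed, base 9 is the single position of the 22 at which the 3 members with the higher differences (U) do not share a base with the other two (C). This split was looked for after the values had been seen and is a description of 5 sequences.

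The 5p arms, the other strands of the hairpins, were near the background. They are shown because their seeds differ from those of the 3p arms.
miR-200a-5p: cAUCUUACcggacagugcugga
miR-200b-5p: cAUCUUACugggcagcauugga
miR-141-5p: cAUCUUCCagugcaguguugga
The arm mmu-miR-200b-5p read 97.0 and 86.9 in skin, above the limit of 59.9, and 68.4 and 67.1 in oral mucosa, below the limit of 71.8. Set against the lowest detected oral mucosa signal its difference was -1.52 (SD 0.19 from the skin spots), while the raw means, 91.9 and 67.7, differed 1.36-fold. So near the background the fitted offset carries much of the value. It was -0.74 with quantile normalization, -0.35 with no normalization and -0.82 with the processed intensities, and past the size rule in 15 of 22 alternatives. MiR-200b-3p, from the same hairpin, was also below 0, but short of the size rule.

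The arm mmu-miR-200a-5p read 58.2 and 66.3 in skin, with a mean of 62.3 just over the limit, and 62.2 and 66.7 in oral mucosa, below the limit there. These readings overlapped. Set against the lowest detected oral mucosa signal its difference was -0.38 (SD 0.34), short of the size rule, and the sign turned with the scale, to 0.21 with no normalization and 0.11 with the keratinocyte microRNAs set to 0. In skin the spot in row 1 (58.2) lay under the limit and the spot in row 114 (66.3) over it. Its detection in skin thus rests on 1 spot and is uncertain. The 4 empty spots of the skin array in row 1 read 36.1 to 54.4, and the 12 in lower rows read at most 35.7. The arm mmu-miR-141-5p read 39.7 and 42.2 in skin and 49.6 and 51.5 in oral mucosa, under both limits. The remaining 5p arms of the family, miR-200c-5p (mean 49.1 in skin and 51.7 in oral mucosa) and miR-429-5p (36.5 and 40.2), which are not among the 8 members, were not detected either. For comparison, 22.9% of all probes named 5p and 18.0% of those named 3p were detected on both arrays.

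Marker microRNAs of cell types were read on both arrays. The lists hold no marker that sets skin apart from oral mucosa, so they cannot check the tissue labels. Of the 5 epithelial markers, 4 were detected on both arrays and 0 passed the size rule. The keratinocyte microRNA miR-205-5p, which also targets Zeb1 and Zeb2, differed by -0.51 (SD 0.59), and miR-203-3p, which drives keratinocyte differentiation, by -0.48 (SD 0.37). Of the other epithelial markers, miR-183-5p differed by -0.55 (SD 0.83) and miR-182-5p, the other way, by 0.36 (SD 0.63). The last, miR-96-5p, was detected on neither array. The summed signal of the 5, nearly all of it from miR-205-5p and miR-203-3p, was 42146 in skin and 41574 in oral mucosa. Several markers of other cell types were brighter in oral mucosa. Of 6 mesenchymal markers 5 passed the size rule toward oral mucosa and 0 toward skin, and their summed signal was 570 in skin and 1954 in oral mucosa. The rule was also passed by miR-126a-3p of endothelium, miR-451a of red blood cells and miR-150-5p of white blood cells, while miR-223-3p, miR-144-3p, miR-144-5p and miR-126a-5p were detected on neither array. The sums are of raw signals, before the 1.37-fold scale and the offsets of the arrays were taken into account, and include probes under the limit, among them both endothelial and both white blood cell markers in skin. They were 81.6 and 200 for endothelium, 141.4 and 3154 for red blood cells and 99.7 and 304 for white blood cells, in skin and oral mucosa in turn. Of 4 skeletal muscle markers 3 were detected on at least 1 array and 0 passed, with sums of 297 and 428. The part of tissue composition in the values of the miR-200 family was not tested, and fewer epithelial cells cannot be told apart from less of a microRNA per cell.

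The family was also set beside 18 other microRNAs tied to the transition between the epithelial and the mesenchymal state, miR-203-3p and miR-205-5p among them. Of these 15 were detected on at least 1 array. Over all 562 such microRNAs, 13.7% passed the size rule toward oral mucosa and 14.8% toward skin. From the small counts of the list neither an excess nor a lack is read: 0 of the 15 passed toward oral mucosa and 2 toward skin. The latter were miR-101a-3p, a repressor of the histone methyltransferase Ezh2, at -2.04 (SD 0.48), and miR-10b-5p, which is induced by Twist and was detected in skin only. The 5 members of the miR-30 family, which target Snai1 and vimentin, lay between -0.01 (miR-30d-5p, SD 0.57) and 0.70 (miR-30b-5p, SD 0.71). The skin spots of miR-30b-5p read 847 and 1655, and its difference lay within its repeat-spot error. The median of the 15 was 0.11, against -0.17 for the 5 3p arms of the miR-200 family and -0.00 for all 562 detected microRNAs.

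Among the 394 microRNAs detected on both arrays, 104, or 26.4%, passed the size rule in either direction, against 2 of the 5 3p arms. For 4 of the 5 the normalized spots of the arrays were apart, as they were for 67.8% of the 394. Of the 394, 37 had a higher difference than miR-429-3p and 40 a lower one than miR-200c-3p. The microRNAs whose difference lay nearest the median of the 3p arms were miR-5622-3p (-0.17), miR-6973a-3p (-0.17) and miR-6896-3p (-0.16), a likeness over 2 tissues that rests on 1 difference each.

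**Figure D4:**
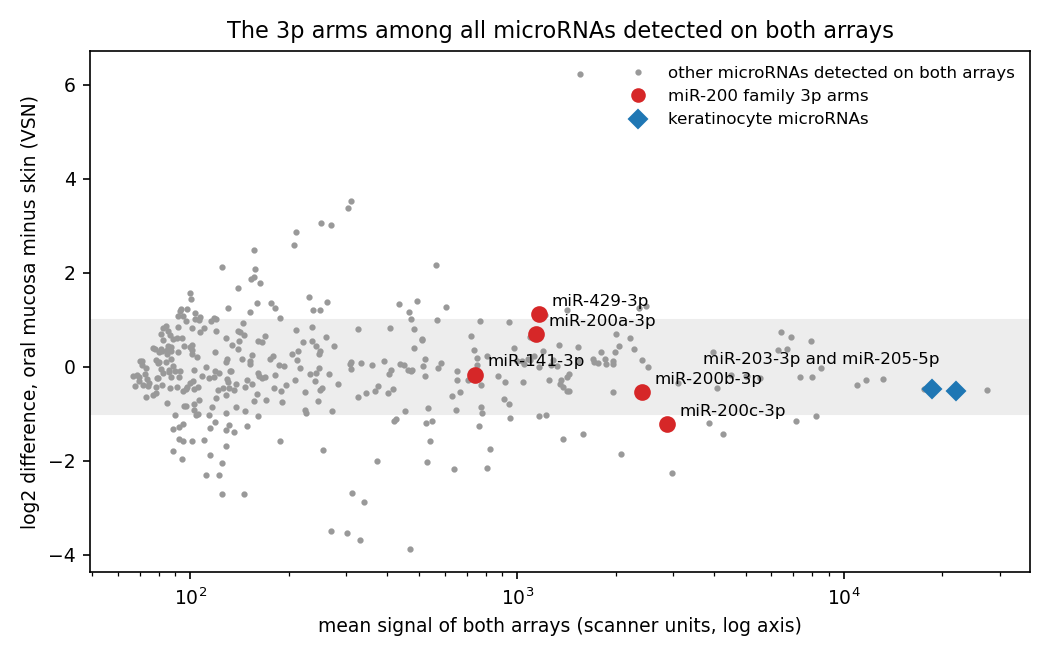
VSN log2 difference, oral mucosa minus skin, against the mean signal of both arrays (scanner units, log axis) for the 394 microRNAs detected on both arrays, with the 3p arms of the miR-200 family in red and the keratinocyte microRNAs miR-203-3p and miR-205-5p as blue diamonds. The 5 red points run from 1.12 to -1.22, across the grey band of differences under the size rule, while the keratinocyte microRNAs sit together near -0.5. That value is not particular to them, as miR-709 (-0.49) and miR-341-5p (-0.47), of like brightness, lie there too. The less bright miR-23a-3p lies at -0.25.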

How the data were processed

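Mouse skin and oral mucosa were profiled on LC Sciences microRNA arrays, 1 per tissue. Per the file headers and labels, the authors deposited for every spot the median Cy5 intensity in scanner units, with neither background nor scale removed, and a table of 1 processed intensity per microRNA whose method is not given in the sources used here (the study's methods name VSN, run in CyberT, for the array data without tying it to this table) and whose scale between arrays stays unknown. Control spots were left out, and the 2 repeat spots of a probe were averaged. VSN was written in Python after its published description (arsinh transformation, maximum likelihood, least trimmed squares with 90% retained per slice of brightness, out of 5 slices, and all of the dimmest slice). This gave offsets of 37.9 (skin) and 46.3 (oral mucosa) and an oral-to-skin scale ratio of 1.37. The procedure was tested on simulated data whose planted changes all exceeded the size rule and which held no effect of chip position. It does not show how smaller changes or regional brightness would fare. A microRNA detected on 1 array only was compared, on the other, with its own reading or with the dimmest detected probe, whichever was higher. Arrays have no read depth, and their number limits the precision. The microRNAs named were the members, the other arms of their precursors, the fixed lists and the 3 nearest in difference. Members and lists were chosen with earlier results of these data known. Mature sequences came from RefSeq (GRCm38.p6), where all 8 members matched. Alternatives covered normalization, background (normexp of limma with an offset of 50), the scale reference, the repeat spots, local brightness, the detection limit and the threshold. MiR-486 and miR-142a, on the marker lists, had no probe under the listed names. Tools were Python 3.11.15, numpy 2.4.6, scipy 1.17.1, pandas 2.3.3, R 4.3.3 and limma 3.58.1.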

Additional observations from a re-analysis of the deposited data

How the results depend on the processing

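No paired analysis was possible because only 1 array was made per tissue. Centring on calibration controls or on 5S ribosomal RNA controls and the wider local brightness (10 rows and 5 columns, family arms left out) were chosen after seeing the data. The 3 members past the size rule became 1 with quantile normalization, with or without normexp, and with local brightness taken off over 3 rows and 3 columns (1), and 0 at a 4-fold threshold. The chromosome 4 cluster median of 0.70 was 0.87 with quantile normalization (0.85 after normexp), 0.82 with scaling to the median, 1.12 with no normalization, 0.98 with the empty spots subtracted and 1.19 with miR-203-3p and miR-205-5p set to 0. It was 0.57 with the later spot only, 0.39 with local brightness and 0.57 with wider local brightness taken off, 0.83 on the calibration controls and 0.91 on the 5S controls. The chromosome 6 median of -0.69 was -0.43 with quantile normalization (-0.42 after normexp), -0.23 with no normalization, -0.42 with the empty spots subtracted and -0.20 with the keratinocyte microRNAs set to 0. The contrast between the clusters moved in 1 of the 12 settings that could change it, to 0.68 with local brightness taken off, where the surroundings include family arms, and the seed contrast in 0 of 12. A start of the VSN fit at offset 0 changed 0 of these 5 results beyond the repeat-spot error or the count limit. The cause of these shifts was not tested beyond the construction of the settings. Low signal over background limits the 5p arms: miR-200b-5p ran from -1.78 to -0.35 and miR-200a-5p from -0.87 to 0.21.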

Other observations

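The spread within the miR-200 family was set beside that of other groups of microRNAs, chosen after the family's values had been seen. Of the 18 groups of at least 3 probes that share a seed and were detected on both arrays, the group of miR-200b-3p, miR-200c-3p and miR-429-3p had the 5th widest range of differences, 2.34 against a median range of 0.99. Of the 7 genomic clusters with at least 3 such arms from hairpins within 10 kb, the chromosome 4 cluster of the family ranked 2, with 1.65 against a median of 1.30. The sets are unlike, since the family's held 3p arms only and some others held both strands. The median itself is the range of the miR-23a cluster, which runs from miR-23a-5p at -1.33, with miR-23a-3p at -0.25. Unequal differences among members of 1 cluster or 1 seed group were thus also read for other microRNAs on these arrays.

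Repeat spots differed in a like way on both arrays around the first spot of miR-200c-3p, in row 4. There 32 other probes detected on both arrays read a median of 0.39 (log2, skin) and 0.31 (oral mucosa) above their repeat spots, and miR-200c-3p itself read 0.42 and 0.47 above. On the VSN scale these 32 had a median difference of -0.48 there, against 0.01 for 33 probes around the second spot. This depended on the window. Within 3 rows and 3 columns, family arms included, the median was -0.23 (12 probes) around the first spot and -0.45 (9 probes) around the second. The differences of miR-200c-3p at the separate positions were 0.04 (SD) apart, against an SD of 0.46 from unmatched spots.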
